A study of Mus musculus with 6 samples.

Results

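A set of 10 lysosomal protease genes was followed in CD11b+ cells of TC1 tumors grown under the skin of control (MCT2 CO) and knockout (MCT2 KO) mice: *Ctsa*, *Ctsb*, *Ctsc*, *Ctsd*, *Ctsh*, *Ctsk*, *Ctsl*, *Ctss*, *Ctsz* and *Lgmn*. They were chosen by gene symbol, and all 10 were among the 25701 genes listed in the deposited table. All 10 were also among the 13485 genes kept after removal of those with few reads. The mice of both groups carried loxP-flanked alleles of MCT2 (*Slc16a7*) and a tamoxifen-inducible Cre transgene on a C57BL/6 background. At 8 weeks of age, MCT2 KO mice were given tamoxifen for 5 days (0.18 mg per g body weight daily) whereas MCT2 CO mice were given vehicle, so deletion and tamoxifen exposure cannot be told apart. Cells of TC1, a mouse lung epithelial tumor line that was not itself deleted for MCT2, were then placed under the skin of the flank, and tumors were taken after 24 days. The sample records give lung as the tissue, but the procedure described is for tumors of the flank. The methods give the Cre line by its stock only and do not state its promoter. There were 3 libraries per group, and the sources do not state whether each came from 1 mouse, so p values measure the spread between these preparations.

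Cathepsins are proteases of the endosome and lysosome. They are made as inactive precursors, sorted to the lysosome by mannose 6-phosphate receptors and activated there by loss of their propeptide, and macrophages use them to digest engulfed material, to process antigen for MHC class II and, when secreted, to cleave matrix around tumors. The name covers several catalytic mechanisms. *Ctsb*, *Ctsc*, *Ctsh*, *Ctsk*, *Ctsl*, *Ctss* and *Ctsz* encode papain-family cysteine proteases, *Ctsd* encodes an aspartic protease, and *Ctsa* encodes a serine carboxypeptidase, so the set is wider than the cysteine and aspartic enzymes. *Lgmn* encodes legumain, a cysteine protease of another family that cuts after asparagine and helps to mature several cathepsins.

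The libraries held 24863611 to 31713704 counted reads. The targeted gene *Slc16a7* was read 481, 287 and 298 times in the MCT2 CO libraries and 196, 162 and 133 times in the MCT2 KO libraries, in the order of replicates, which is the order used for all values that follow. The groups did not overlap, and its log2 fold change (MCT2 KO over MCT2 CO) was -1.05 with a standard error (SE) of 0.24 and an edgeR adjusted p of 0.370. CD11b itself (*Itgam*) had 1 count over the 6 samples, and 99.1% of its exon bases lie inside the span of another listed gene, so it could not serve as a check of the purification. The 10 macrophage markers examined, among them *Adgre1* (F4/80) at 253 to 538 CPM and *Csf1r* at 843 to 1408 CPM, were all expressed in every sample. The 6 fibroblast markers examined were also present, at a summed 1680 to 3295 CPM, with all MCT2 KO samples below all MCT2 CO samples. Taken singly, 3 of the 6 were parted in this way, against 8.77% of all genes. According to the paper, telling implanted TC1 cells from host stromal cells would need further analyses. Whether these transcripts came from host or tumor cells was not tested. MCT2 CO replicate 3 and MCT2 KO replicate 2 differed most from the other samples of their groups. In bulk RNA, fewer cells of a type and less RNA per cell cannot be told apart.

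Promoters are shown because the lysosomal regulators TFEB, TFE3 and MITF are known to bind the palindrome CACGTG, and its longer form TCACGTGA, near lysosomal genes. The sequences are those of RefSeq on GRCm38.p6, from 250 bases before to 50 bases after an annotated start, and they were found for 8 of the 10 genes; *Ctsb* and *Ctsh* were not among them. The first is that of *Ctsd*, the gene with the smallest p of the 10, at chr7:142387778-142388077 on the minus strand. The second belongs to the downstream start of *Ctsa* at chr2:164833523-164833822 on the plus strand. Capitals mark CACGTG in both. The third is that of *Ctss*, the most abundant of the 10 per kb of exon, at chr3:95526536-95526835 on the plus strand. It holds no CACGTG, and capitals there mark GAGGAA or its reverse complement, a core bound by the myeloid factor PU.1.
Ctsd: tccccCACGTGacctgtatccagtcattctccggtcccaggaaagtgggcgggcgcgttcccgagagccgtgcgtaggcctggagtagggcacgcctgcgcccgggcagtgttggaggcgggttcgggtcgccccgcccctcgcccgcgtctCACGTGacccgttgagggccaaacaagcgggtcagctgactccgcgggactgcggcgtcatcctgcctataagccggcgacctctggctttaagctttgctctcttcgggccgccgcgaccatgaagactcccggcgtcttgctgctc
Ctsa: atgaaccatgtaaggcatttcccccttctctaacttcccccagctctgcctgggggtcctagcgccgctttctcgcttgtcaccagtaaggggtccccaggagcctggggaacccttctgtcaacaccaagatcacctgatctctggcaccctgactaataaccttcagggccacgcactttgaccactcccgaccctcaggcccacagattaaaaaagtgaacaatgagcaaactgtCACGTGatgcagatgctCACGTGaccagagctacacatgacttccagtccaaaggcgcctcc
Ctss: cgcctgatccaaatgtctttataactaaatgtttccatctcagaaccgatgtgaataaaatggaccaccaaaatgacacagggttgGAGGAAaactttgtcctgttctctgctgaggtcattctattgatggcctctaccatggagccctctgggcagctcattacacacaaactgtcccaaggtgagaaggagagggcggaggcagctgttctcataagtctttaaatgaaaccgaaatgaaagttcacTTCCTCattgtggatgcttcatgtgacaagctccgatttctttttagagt

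The 8 genes with a sequence had 10 promoters. CACGTG, which reads the same on both strands, was found in 4 of these 10, and in 7.15% of the 32851 mouse promoters of this length. The 4 belong to *Ctsa*, *Ctsd*, *Ctsl* and *Lgmn*, and the other promoters of *Ctsa* and *Lgmn* held none. TCACGTGA, which contains it, was found in *Ctsa* and *Ctsd* only, and in 0.974% of all promoters. In *Ctsd* the matches begin 245 and 98 bases before the start, and in *Ctsa* 12 bases before and 5 bases after the start. GAGGAA, searched on both strands, was found in *Ctsc*, *Ctsk* and *Ctss*, and in 28.3% of all promoters. A match to these letters is a description of the sequence, not of binding.

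Levels were compared between genes as CPM, the counts scaled by library size and TMM factors, per kb of annotated exon. *Ctss*, which encodes the elastinolytic protease that trims the invariant chain of MHC class II, was the most abundant, at 1342 ± 276 CPM per kb (SD, n = 3) in MCT2 CO and 1578 ± 559 in MCT2 KO. It was above *Lgmn* in every sample, and the ranges of this pair did not overlap. *Lgmn* (524 ± 73.7 and 651 ± 145 CPM per kb), *Ctsz* (411 ± 47.7 and 503 ± 91.5), *Ctsb* (275 ± 32.1 and 355 ± 50.7), *Ctsc* (197 ± 14.2 and 239 ± 31.7) and *Ctsl* (189 ± 8.70 and 192 ± 7.75) followed. Each of these neighbours overlapped with the next in its range over the samples, up to *Ctsl*, which lay above *Ctsa* in every sample without overlap. *Ctsa* (103 ± 10.8 and 129 ± 27.1), *Ctsd* (84.3 ± 4.31 and 108 ± 9.94) and *Ctsh* (86.5 ± 21.7 and 98.6 ± 38.8) formed a lower group, and *Ctsd* was above *Ctsh* in 3 of the 6 samples. *Ctsk*, known as the collagenase of osteoclasts, was below *Ctsh* without overlap, at 8.15 ± 6.33 CPM per kb in MCT2 CO and 9.14 ± 4.75 in MCT2 KO.

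**Figure D1:**
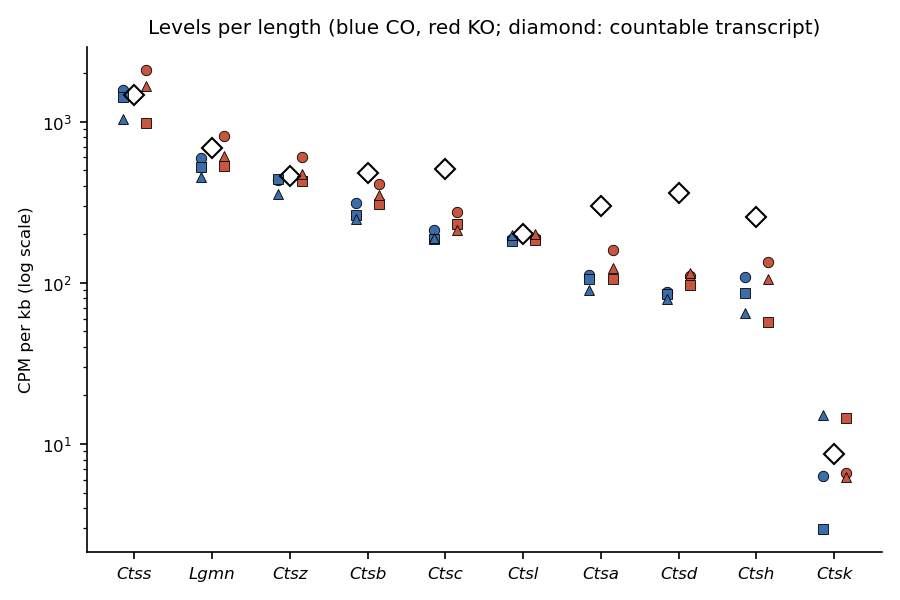
CPM per kb on a log axis for the 10 genes, ordered by their mean level per kb of exon, with MCT2 CO in blue, MCT2 KO in red, and circles, squares and triangles for replicates 1, 2 and 3. Open diamonds give the mean per countable kb of the principal transcript, which puts *Ctsd* at 359 CPM per kb and leaves *Ctss* first and *Ctsk* last.

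The order depended on the length used, also at the top. The lengths listed beside the counts are whole gene spans, and per kb of span *Ctsl* was at rank 1 (107 CPM per kb), *Ctss* at rank 4 (66.9) and *Lgmn* at rank 7 (29.9). Of 475 protein-coding genes that lie inside a gene of the other strand, 474 had 0 counts, against 20% of the 16261 that overlap no listed gene, so reads in such overlaps were not counted. For *Ctsd*, 63.7% of the exon bases lie inside the span of *Gm49369*, a gene of the same strand that held 1 count over the 6 samples. For *Ctsa* the share was 39.0% (with *Pltp* and *Neurl2* on the other strand) and for *Ctsb* 12.8% (with *Fdft1*). A level per kb of all exons divides by these bases too. Per kb of countable exon in the principal transcript, *Ctsd* came to 359 CPM per kb, *Ctsa* to 298 and *Ctsb* to 481, against 1463 for *Ctss* and 686 for *Lgmn*.

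The share of each enzyme in the summed level per kb of exon was then read. *Ctss* made up 41.4% ± 2.99 (SD, n = 3) in MCT2 CO and 40.0% ± 5.71 in MCT2 KO, and its lowest share, 33.5%, was in MCT2 KO replicate 2. *Lgmn* made up 16.3% ± 0.344 and 16.9% ± 1.14. For each of the 10 genes these shares of the groups overlapped. The share of *Ctss* was 31.3% ± 2.61 in MCT2 CO and 30.0% ± 4.85 in MCT2 KO per countable kb of the principal transcript, and 13.7% ± 1.78 and 13.4% ± 2.87 per kb of span. Per kb of span, the shares of *Ctsa* (13.3% ± 0.39 and 14.1% ± 0.688) and *Ctsb* (15.9% ± 0.624 and 17.4% ± 0.387) were higher in every MCT2 KO sample than in any MCT2 CO sample. By the other lengths the shares of both overlapped, and those of the other genes overlapped by every length. Shares within a sample depend on each other, and *Ctsl*, the largest per kb of span, had 23.9% ± 3.0 and 20.8% ± 3.16. Together the 10 genes took 0.971%, 0.875% and 0.795% of all counted reads in MCT2 CO and 1.2%, 0.883% and 1.03% in MCT2 KO, and these shares overlapped.

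The comparison of MCT2 KO with MCT2 CO asks whether the protease transcripts of CD11b+ tumor cells differ when the host has less MCT2. A gene was called when its adjusted p was 0.05 or less and its log2 fold change was 0.58 or more on either side of 0. EdgeR's quasi-likelihood test called 0 of the 10 genes and 0.0% of the 13485 tested. DESeq2's Wald test also called 0 of the 10, with 0.586% of the same genes called and 0.448% of the 18508 with at least 1 count.

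At an unadjusted p under 0.05, edgeR gave *Ctsb* and *Ctsd*, so 2 of the 10 genes were higher in MCT2 KO at this level and 0 were lower. Over all genes tested 3.77% were higher and 5.60% lower at this level, and 3.49% of the 2661 genes with a mean of at least 100 CPM were higher. DESeq2 gave 4 of the 10 (*Ctsa*, *Ctsb*, *Ctsc* and *Ctsd*), against 4.03% of the same genes and 3.05% of those with at least 1 count.

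All 10 log2 fold changes were above 0, against 50.1% of all genes tested and 55.0% of those with a mean of at least 100 CPM, and their median was 0.29 against 0.0 over all genes. Of the 10, 6 were above 0.25, against 10.1% of all genes. The MCT2 KO samples lay above all MCT2 CO samples in 1 of the 10, *Ctsd*, against 7.07% of all genes and 6.31% of those with a mean of at least 100 CPM. They lay below in 0 of the 10, against 8.77% of all genes.

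**Figure D2:**
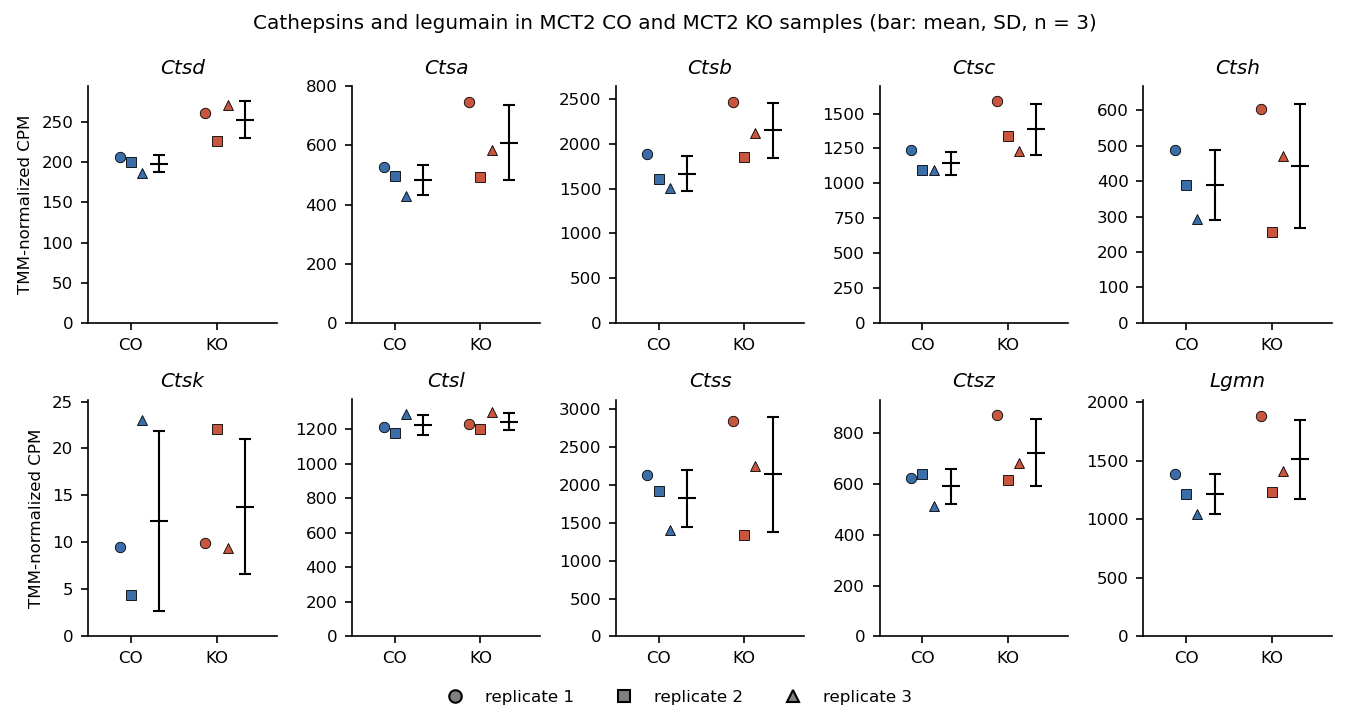
TMM-normalized CPM of each gene in the 6 samples, with circles, squares and triangles for replicates 1, 2 and 3 of each group and a bar for the mean and SD (n = 3). *Ctsd* is the gene whose groups do not overlap, *Ctsl* lies between 1175 and 1300 CPM in every sample, and *Ctsk* is highest in MCT2 CO replicate 3 and MCT2 KO replicate 2.

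*Ctsd* (ENSMUSG00000007891, minus strand of chromosome 7 of GRCm38, 142375911 to 142388038) encodes the main aspartic endopeptidase of the lysosome, whose substrates include prosaposin and other enzyme precursors. It had 207, 201 and 187 CPM in MCT2 CO and 262, 227 and 271 CPM in MCT2 KO. The lowest MCT2 KO value was above the highest MCT2 CO value (p = 0.1 in a two-sided exact permutation test, which cannot go lower with 3 samples per group). Its log2 fold change was 0.35 (SE 0.10, 95% interval 0.13 to 0.58), and edgeR gave an unadjusted p of 0.00639 and an adjusted p of 0.416. *Ctsd* ranked 207 by p of the 13485 genes. Leaving out single samples, its log2 fold change lay between 0.31 and 0.43, and its adjusted p by DESeq2 on the same genes was 0.0815.

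*Ctsa* (ENSMUSG00000017760, plus strand of chromosome 2, 164832873 to 164841032) encodes the carboxypeptidase that also shields β-galactosidase (*Glb1*) and neuraminidase (*Neu1*) in a lysosomal complex. It had 528, 497 and 428 CPM in MCT2 CO and 747, 495 and 586 CPM in MCT2 KO. MCT2 KO replicate 1 was the highest sample, and MCT2 KO replicate 2 was below 2 of the MCT2 CO samples. Between groups the log2 fold change was 0.33 (SE 0.16, edgeR adjusted p = 0.563), and it was 0.17 without MCT2 KO replicate 1.

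Its partner *Glb1* had 81.8, 85.1 and 80.7 CPM in MCT2 CO and 98.1, 111 and 101 CPM in MCT2 KO. The groups of *Glb1* did not overlap, and its log2 fold change was 0.32 (SE 0.08, edgeR adjusted p = 0.380). *Neu1* had a log2 fold change of 0.31 with overlapping groups.

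Among the cysteine proteases, *Ctsb* (ENSMUSG00000021939, plus strand of chromosome 14, 63122462 to 63145923) encodes an enzyme with endopeptidase and dipeptidyl carboxypeptidase activity that is abundant in tumor macrophages. It had 1882, 1604 and 1508 CPM in MCT2 CO and 2469, 1857 and 2122 CPM in MCT2 KO. The groups overlapped by 1 pair of samples, since MCT2 CO replicate 1 lay just above MCT2 KO replicate 2. Its log2 fold change was the highest of the 10, at 0.37 (SE 0.14, 95% interval 0.04 to 0.70), and edgeR gave an unadjusted p of 0.0337 and an adjusted p of 0.503. It lay between 0.27 and 0.47 with each sample left out.

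*Ctsl* (ENSMUSG00000021477, minus strand of chromosome 13, 64359337 to 64370890) encodes a broad endopeptidase of the same family. It had 1211, 1175 and 1286 CPM in MCT2 CO and 1228, 1203 and 1300 CPM in MCT2 KO. Its highest sample was 1.11 times its lowest, and 96.7% of the genes tested had a larger spread over the 6 samples. Its log2 fold change was 0.023 with a 95% interval of -0.2 to 0.25, which leaves out the threshold of 0.58 on either side. The log2 ratio of *Ctsb* to *Ctsl* within each sample was 0.64, 0.45 and 0.23 in MCT2 CO and 1.01, 0.63 and 0.71 in MCT2 KO. The ratios of the groups overlapped at MCT2 CO replicate 1 and MCT2 KO replicate 2.

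*Ctss* (ENSMUSG00000038642, plus strand of chromosome 3, 95526786 to 95556403) had 2135, 1925 and 1408 CPM in MCT2 CO and 2844, 1337 and 2248 CPM in MCT2 KO. MCT2 KO held both the highest and the lowest sample. The log2 fold change of 0.23 (SE 0.27, 95% interval -0.39 to 0.86) became -0.017 without MCT2 KO replicate 1 and 0.48 without MCT2 KO replicate 2.

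*Ctsh* (ENSMUSG00000032359, plus strand of chromosome 9, 90054152 to 90076089), an aminopeptidase, had 488, 389 and 292 CPM in MCT2 CO and 603, 256 and 471 CPM in MCT2 KO. The highest and lowest samples were those of *Ctss*, MCT2 KO replicates 1 and 2. Its log2 fold change was 0.19 (SE 0.30), and -0.091 without MCT2 KO replicate 1. The invariant chain *Cd74*, a substrate of cathepsin S, was likewise highest in MCT2 KO replicate 1 (6987 CPM) and lowest in MCT2 KO replicate 2 (2323 CPM), with a log2 fold change of 0.09 (SE 0.36).

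*Ctsk* (ENSMUSG00000028111, plus strand of chromosome 3, 95499256 to 95509362) lies next to *Ctss* on the same strand, with 17423 bases between them. It had 286, 116 and 611 counts in MCT2 CO and 237, 720 and 234 counts in MCT2 KO, or 9.54, 4.46 and 23.0 CPM and 9.94, 22.1 and 9.40 CPM. A sample of each group stood above the rest, MCT2 CO replicate 3 and MCT2 KO replicate 2, which were the lowest samples of their groups in *Ctss*. The level of *Ctss* per kb was 67.4 to 481 times that of *Ctsk*, depending on the sample. The log2 fold change of *Ctsk* was 0.17 with a 95% interval of -1.12 to 1.46, and it was 0.98 without MCT2 CO replicate 3 and -0.35 without MCT2 KO replicate 2. Its spread over the 6 samples was exceeded by 1.23% of the genes tested.

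Markers of the other cell types that express *Ctsk* were read beside it. The 6 fibroblast markers summed to 2015, 2202 and 3295 CPM in MCT2 CO and 1790, 1785 and 1680 CPM in MCT2 KO, with *Col3a1* the largest part of each sum. *Col1a1* (79.8, 82.9 and 178 CPM against 63.1, 88.9 and 69.9 CPM) and *Pdgfra* (352, 374 and 483 CPM against 352, 438 and 373 CPM) were highest in MCT2 CO replicate 3 and next in MCT2 KO replicate 2, as these samples led in *Ctsk*. *Col1a2* was highest in MCT2 CO replicate 3 (547 CPM) and next in MCT2 CO replicate 2 (464 CPM), ahead of MCT2 KO replicate 2 (438 CPM). In *Col3a1*, *Dcn* and *Lum*, MCT2 CO replicate 3 was the highest sample and MCT2 KO replicate 2 was below every MCT2 CO sample. None of the 6 was at 0 in any sample. Of 6 osteoclast markers 5 were tested, and all 5 had a log2 fold change above 0 (median 0.88), against 50.1% of all genes. In 3 of them all MCT2 KO samples were above all MCT2 CO samples, against 7.07% of all genes. These were *Ocstamp* (12.1 to 31.3 CPM), *Dcstamp* (1.35 to 7.55 CPM) and *Atp6v0d2* (0.423 to 3.41 CPM). The 6 osteoclast markers summed to 380, 256 and 156 CPM in MCT2 CO and 494, 255 and 425 CPM in MCT2 KO. Most of each sum was *Acp5*, whose groups overlapped and which is also counted among the other hydrolases. *Atp6v0d2* was highest in MCT2 KO replicate 2 (3.41 CPM), with 1.39 CPM in MCT2 CO replicate 3, and *Calcr* was at 0 in 5 of the 6 samples. What these cells contribute to the *Ctsk* values was not tested.

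**Figure D3:**
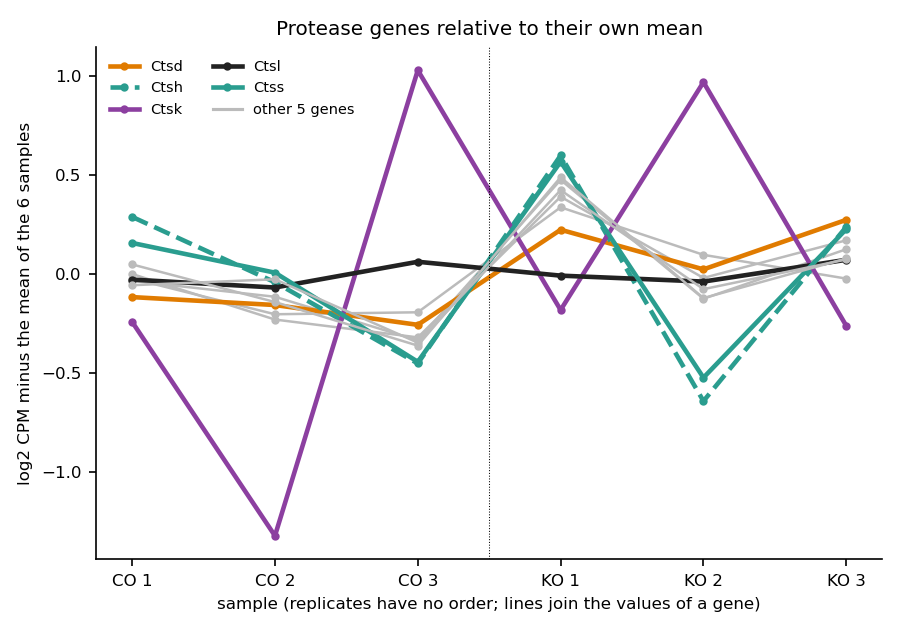
Log2 CPM of each gene minus its mean over the 6 samples, with a line per gene and the groups to the left (MCT2 CO) and right (MCT2 KO) of the dotted line; replicates have no order. *Ctsl* stays within 0.1 of its mean, *Ctss* and *Ctsh* are low in MCT2 CO replicate 3 and MCT2 KO replicate 2, and *Ctsk* is high in these samples.

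*Ctsc* (ENSMUSG00000030560, plus strand of chromosome 7, 88278085 to 88310888) encodes the dipeptidyl peptidase that activates the serine proteases of neutrophils and cytotoxic lymphocytes. It had 1238, 1093 and 1098 CPM in MCT2 CO and 1590, 1342 and 1230 CPM in MCT2 KO. MCT2 CO replicate 1 and MCT2 KO replicate 3 crossed by a small margin, and the other samples were parted by group. It had a log2 fold change of 0.28 (SE 0.13, 95% interval -0.01 to 0.57, edgeR adjusted p = 0.546). Of 10 neutrophil markers 8 were tested, and 6 had all MCT2 KO samples above all MCT2 CO samples, against 7.07% of all genes. *S100a9*, among the 6, had 3.5, 2.58 and 4.18 CPM in MCT2 CO and 20.9, 9.12 and 7.63 CPM in MCT2 KO. The groups overlapped in *Csf3r* (41.1 to 120 CPM, log2 fold change 0.11) and *Cxcr2* (0.553 to 1.17 CPM, log2 fold change -0.17). The summed CPM of the 10 markers overlapped too, at 103, 103 and 83.3 in MCT2 CO and 186, 69.6 and 138 in MCT2 KO. *Ly6g* was at or near 0 in every sample, and the bearing of neutrophils on *Ctsc* was not tested.

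*Ctsz* (ENSMUSG00000016256, minus strand of chromosome 2, 174427493 to 174439039), a carboxypeptidase, had 624, 638 and 513 CPM in MCT2 CO and 871, 617 and 684 CPM in MCT2 KO. *Lgmn* (ENSMUSG00000021190, minus strand of chromosome 12, 102394084 to 102439813) had 1389, 1218 and 1047 CPM in MCT2 CO and 1887, 1237 and 1414 CPM in MCT2 KO. In both genes MCT2 KO replicate 1 was the highest sample and MCT2 CO replicate 3 the lowest, and the groups overlapped. Their log2 fold changes were 0.29 (SE 0.15, edgeR adjusted p = 0.586) and 0.31 (SE 0.18, edgeR adjusted p = 0.618). Without MCT2 KO replicate 1 they were 0.15 and 0.13.

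**Figure D4:**
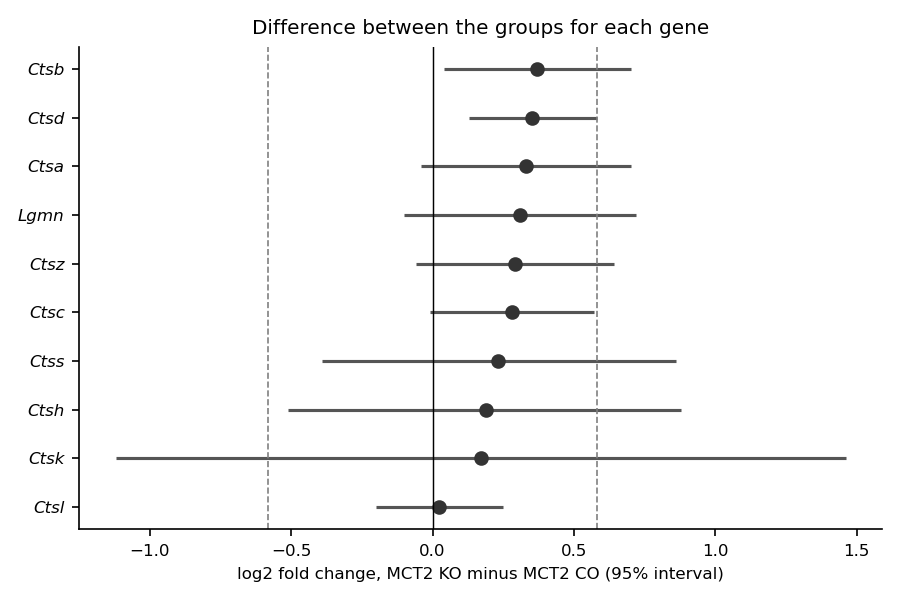
Log2 fold change of MCT2 KO against MCT2 CO for each gene (points) with its 95% interval (lines) from edgeR's quasi-likelihood fit; dashed lines mark 0.58 on either side. All points lie above 0, and the intervals of *Ctsb* (0.04 to 0.70) and *Ctsd* (0.13 to 0.58) do not include 0.

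The extremes fell mostly on the same samples. MCT2 KO replicate 1 was the highest sample in 7 of the 10 genes, and MCT2 CO replicate 3 was the lowest in 5. These samples were also the highest and the lowest in the summed macrophage markers, at 6312, 5618 and 4809 CPM in MCT2 CO and 8807, 4942 and 6289 CPM in MCT2 KO. All 10 macrophage markers had a log2 fold change above 0, against 50.1% of all genes, with a median of 0.25. Their range was 0.08 to 0.37, and none of them was called. The 10 proteases summed to 9711, 8744 and 7789 CPM in MCT2 CO and 12511, 8594 and 10335 CPM in MCT2 KO. Relative to the macrophage markers of the same sample, their log2 ratio was 0.62, 0.64 and 0.70 in MCT2 CO and 0.51, 0.80 and 0.72 in MCT2 KO, so the ratios overlapped. The log2 ratio of *Ctsd* to these markers overlapped as well, at -4.93, -4.81 and -4.69 in MCT2 CO and -5.07, -4.45 and -4.54 in MCT2 KO. What macrophage abundance contributes to the differences was not tested.

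**Figure D5:**
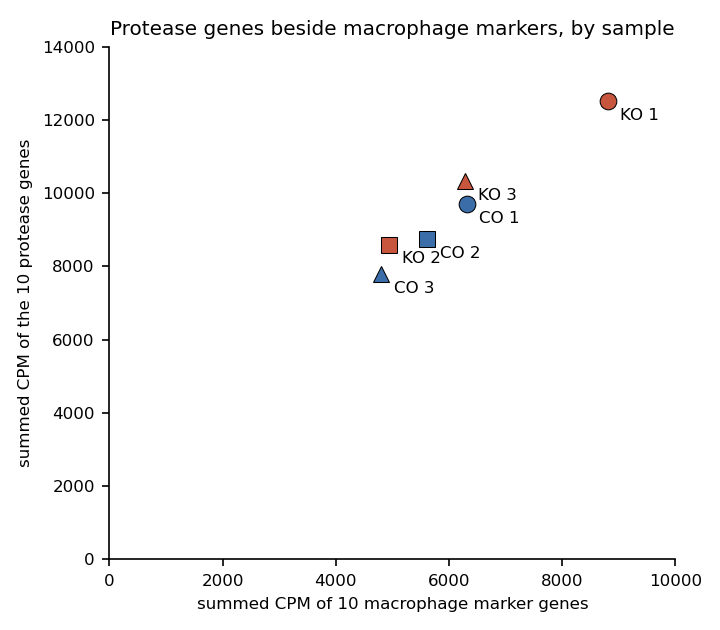
Summed CPM of the 10 protease genes against the summed CPM of 10 macrophage marker genes, with a point per sample, MCT2 CO in blue and MCT2 KO in red. MCT2 KO replicate 1 is highest and MCT2 CO replicate 3 lowest on both axes.

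Of 19 inhibitor genes (cystatins, stefins and related genes), 3 passed the filter. *Ctla2a* and *Ctla2b*, which did not, have 97.4% and all of their exon bases, respectively, inside other listed genes, so their reads could hardly be counted. *Cst3*, which encodes the secreted inhibitor cystatin C, had 572, 544 and 568 CPM in MCT2 CO and 600, 312 and 363 CPM in MCT2 KO. MCT2 KO replicates 2 and 3 were below every MCT2 CO sample, whereas MCT2 KO replicate 1 was above them, and the log2 fold change was -0.40 (SE 0.22, edgeR adjusted p = 0.604). *Cstb*, the cytosolic inhibitor stefin B, had a log2 fold change of 0.13. *Cst7*, which encodes cystatin F and had means of 6.04 and 9.95 CPM, had a log2 fold change of 0.72 (SE 0.27, edgeR adjusted p = 0.497). The log2 ratio of *Ctsb* to *Cst3* within each sample was 1.72, 1.56 and 1.41 in MCT2 CO and 2.04, 2.57 and 2.55 in MCT2 KO, and that of *Ctss* to *Cst3* was 1.90, 1.82 and 1.31 against 2.25, 2.1 and 2.63. In both ratios all MCT2 KO samples were above all MCT2 CO samples. The log2 ratio of *Ctsb* to *Cstb* overlapped, at 4.3, 4.42 and 4.47 in MCT2 CO and 4.82, 4.47 and 4.56 in MCT2 KO. These ratios are descriptions chosen with the values known and were not tested, and of 6 computed the other 4 overlapped.

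EdgeR called 0 genes of the related lists in either direction, and 0.0% of all genes tested. At an unadjusted p under 0.05 it gave 1 of 3 inhibitors (*Cst7*) and 2 of 7 cofactors (*Glb1* and *Grn*). It also gave 2 of 20 other hydrolases and 0 of the sorting genes and transcription factors. All of those given were higher in MCT2 KO, and over all genes tested 3.77% were higher at this level. Of the 10 genes that sort lysosomal enzymes, 8 had a log2 fold change above 0, against 50.1% of all genes tested, with a median of 0.10. They ranged from the sorting receptor *Sort1* at -0.10 to *Gga2*, an adaptor of the mannose 6-phosphate receptors, at 0.32, and *Igf2r*, the larger of these receptors, was at -0.01. Among 7 cofactors and partners all were above 0, with a median of 0.31. The highest of them was *Grn* (progranulin, which binds procathepsin D) at 0.39 (SE 0.16), with 1125, 1098 and 870 CPM in MCT2 CO and 1566, 1101 and 1396 CPM in MCT2 KO, and with overlapping groups. The class II chaperone gene *H2-DMb1* was at 0.13.

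The transcription factors of lysosomal genes and their control lay near 0, with a median of 0.04. Of these 7, 5 were above 0, against 50.1% of all genes tested. *Tfeb* had 23.5, 25.3 and 22.0 CPM in MCT2 CO and 29.5, 17.7 and 20.6 CPM in MCT2 KO, a log2 fold change of -0.07 (SE 0.18). *Mcoln1*, the lysosomal calcium channel, was highest of this list at 0.17, and *Rraga* and *Flcn* were at -0.02 and 0.07. Of 20 other lysosomal hydrolases, 19 were above 0, against the same 50.1%, with a median of 0.23. *Dnase2a* (0.40, SE 0.14) and *Acp5* (0.56, SE 0.38) were at the top, and *Smpd1*, an acid sphingomyelinase, was at 0.04. The differences between these lists and the 10 proteases were not tested.

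The mean of the centred log2 CPM of the 10 proteases counts each gene equally, so *Ctsk* weighs as much in it as *Ctss*. This mean was lowest in MCT2 CO replicate 2 (-0.23), whereas the summed CPM was lowest in MCT2 CO replicate 3 (7789). Over the 6 samples, 9443 genes outside the lists with a mean of at least 10 CPM were compared with this mean. Those whose log2 CPM followed it most closely were *Eif3f*, *Arpc4*, *Adck2*, *Glul* and *Mcur1* (Pearson's r from 0.976 to 0.989, given as a description). Each was highest in MCT2 KO replicate 1, and all but *Mcur1* were lowest in MCT2 CO replicate 2. Of these, the groups did not overlap in *Glul*, which encodes glutamine synthetase and had 132, 106 and 111 CPM in MCT2 CO and 178, 132 and 134 CPM in MCT2 KO (log2 fold change 0.34, SE 0.14), where the nearest samples of the groups differ by less than the rounding.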

How the data were processed

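Poly-A RNA of CD11b+ cells was sequenced from stranded libraries in 3 MCT2 CO and 3 MCT2 KO samples. Per the labels, the authors used STAR 2.7.11b (GRCm38) for alignment and featureCounts 2.1.1 for counting, and deposited raw counts per gene without normalization. The annotation and the strand setting are not given in the sources used here. The lengths in the table are whole gene spans, and 98.1% of them match GENCODE M21 but 2.4% of the starts do, so each position printed was looked up by Ensembl identifier in GENCODE M21 (GRCm38). Counting over spans would include intronic reads, and reads shared by overlapping genes were lost.

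Counts were analysed with edgeR 4.0.16 in R 4.3.3. The filter was filterByExpr with a minimum count of 10 and a minimum total of 15. Counts were normalized by TMM, and the quasi-likelihood test was run without covariates, with Benjamini-Hochberg adjustment over all genes kept. Intervals are 95% intervals of the fit. Log2 CPM used a prior count of 2. DESeq2 1.42.0, limma 3.58.1 (voom), other normalizations, no filter, a replicate block and leaving out samples were alternatives. Tests were checked on simulated data with changes larger than those of the 10 genes, so the check does not cover changes of the size seen here. With 24863611 to 31713704 reads per library, the fewest counts of a protease gene in a sample were 116 (*Ctsk*).

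The 10 genes and all lists were chosen with earlier results of these data known. In the lists, the text names the 2 highest and 2 lowest log2 fold changes among genes with a mean of at least 10 CPM; 1 gene so chosen is not reported here, and *Neu1*, *Cst7* and the markers were named after their values were seen.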

Additional observations from a re-analysis of the deposited data

How the results depend on the processing

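None of the 10 protease genes was called at both thresholds by edgeR, DESeq2 or limma-voom under any of the 14 alternatives to a gene's log2 fold change. In 134 of the 140 values so obtained the sign was that of the value reported, and 6 values reversed, each with a sample left out. In those fits *Ctsh* ranged from -0.091 (without MCT2 KO replicate 1) to 0.46, *Ctss* from -0.017 (without MCT2 KO replicate 1) to 0.48 and *Ctsl* from -0.0044 (without MCT2 CO replicate 2; -0.0023 without MCT2 KO replicate 3) to 0.059. *Ctsk* ranged from -0.35 (without MCT2 KO replicate 2; -0.22 without MCT2 CO replicate 2) to 0.98 (without MCT2 CO replicate 3). Fewer samples enter these fits. At an unadjusted p under 0.05 the number of the 10 genes was 2, with 1264 of all 13485 genes in either direction. With a sample left out it lay between 1 and 6. Over all genes the number lay between 787 of 13564 (without MCT2 CO replicate 3) and 1576 of 13643 (without MCT2 KO replicate 2). Both the 6 and the 1576 came from the fit without MCT2 KO replicate 2.

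Over all genes, DESeq2 called 79 among those kept by the filter and 83 without it. EdgeR called 2 genes without a filter on low counts, 0 to 2 with a sample left out (2 without MCT2 KO replicate 2), and 10 without MCT2 CO replicate 3 and MCT2 KO replicate 2 together, an alternative chosen after seeing the data. The targeted gene *Slc16a7* passed both thresholds in DESeq2, with log2 fold changes of -1.05 (adjusted p = 0.00952) with the filter and -1.04 (adjusted p = 0.00908) without it. Whether the replicate numbers of the titles pair the samples could not be decided with 3 samples per group. Deviations of same-numbered samples from their group means correlated at 0.22, -0.25 and -0.16 over genes. With the replicate number as a block, 0 genes were called, and *Ctsd* had a log2 fold change of 0.35 (adjusted p = 0.586 from edgeR).

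The order of levels per kb moved with the length. By whole gene span, *Ctsl* was at rank 1, *Ctsb* 2, *Ctsa* 3, *Ctss* 4, *Ctsz* 5, *Ctsc* 6, *Lgmn* 7, *Ctsh* 8 and *Ctsd* 9. By countable exon bases of the principal transcript, chosen after seeing the data, *Ctsc* was at rank 3, *Ctsz* 5, *Ctsd* 6, *Ctsh* 8 and *Ctsl* 9.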

Other observations

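Of the 13 other cathepsin genes, 4 passed the filter on low counts, and edgeR called 0 of them, with 0 at an unadjusted p under 0.05. *Ctso* had 56.2, 47.8 and 39.4 CPM in MCT2 CO and 54.4, 49.7 and 55.8 CPM in MCT2 KO, a log2 fold change of 0.16 (SE 0.13). *Ctse*, an aspartic protease of the endosome, had 10.3, 14 and 9.86 CPM in MCT2 CO and 16.3, 9.52 and 12.9 CPM in MCT2 KO, a log2 fold change of 0.17 (SE 0.22). The groups of both overlapped.

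*Ctsg*, the serine protease of neutrophil granules, did not pass the filter and was not tested. It had 0, 1 and 1 counts in MCT2 CO and 10, 29 and 1 counts in MCT2 KO. *Ngp*, another neutrophil granule gene, had 4, 5 and 10 counts in MCT2 CO and 364, 118 and 29 counts in MCT2 KO. The highest sample was MCT2 KO replicate 2 in *Ctsg* and MCT2 KO replicate 1 in *Ngp*.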
